A study of Mus musculus with 4 samples.

Results

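The genes of MHC class II antigen presentation were followed in 4 RNA sequencing libraries of mouse T cells. The set holds 9 genes, chosen by name: the class II chain genes H2-Aa, H2-Ab1 and H2-Eb1, the invariant chain gene Cd74, the peptide loading genes H2-DMa and H2-DMb1, the loading inhibitor genes H2-Oa and H2-Ob, and the transactivator gene Ciita. All 9 have a row among the 24768 genes of the deposited table. The libraries form 2 groups of 2: WT cDNT cells, and cDNT cells with the genotype label Tbx21-KO. The design text speaks of a knockdown where the labels speak of a knockout, and neither the meaning of the "c" in cDNT nor the strain, age, culture or Cre line is given in the sources used here. Tbx21 encodes T-bet, a transcription factor of type 1 lymphocytes, and the series title asks what it does in double-negative T cells, which lack the CD4 and CD8 coreceptors.

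MHC class II molecules show peptides from endocytosed proteins to CD4 T cells. An alpha and a beta chain pair in the endoplasmic reticulum with the invariant chain, which blocks the peptide groove and guides the complex to endosomes. There the invariant chain is degraded, and H2-DM swaps its last fragment for a peptide, a step that H2-O restrains. The transactivator CIITA, which does not bind DNA itself, is recruited by RFX, CREB and NF-Y proteins at the X and Y boxes of class II promoters. Dendritic cells, B cells and macrophages are the professional carriers of class II, and mouse T cells are known for carrying little of it.

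Values are FPKM, that is, fragments scaled to exon length and to the library total, and so can be set side by side between genes. The values imply totals of 23342603 to 24967028 counted reads per library, a floor for the sequencing depth. Tbx21 itself was at 13.2 and 11.7 FPKM in the WT libraries and at 2.29 and 2.41 FPKM in the Tbx21-KO libraries. Genes with a mean of at least 1 FPKM over the 4 libraries were tested with limma on log2(FPKM + 1), and an adjusted p under 0.05 is called higher or lower. Of the 11013 genes tested, 30.1% were called higher and 23% lower in Tbx21-KO. The labels do not tell whether the 2 libraries of a group are separate cultures or mice, and the p-values therefore speak only of library-to-library spread, which may be technical. These are bulk libraries, in which a change in the number of cells of a type and a change in RNA per cell cannot be told apart.

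Class II genes were higher in Tbx21-KO, from the chains to the loading factors. All 8 members that passed the filter on low values were called higher and none lower, against 30.1% of all genes tested called higher. Their median log2 difference was 1.38, where the median of all genes tested was 0.04. Of the 8, 7 had a WT mean of at least 1 FPKM. H2-Ob passed the filter only through the Tbx21-KO libraries, and Ciita did not pass it. In each of the 9 genes both Tbx21-KO libraries lay above both WT libraries. The same was true of 37.6% of the genes in the table and of 43.7% of the genes tested. The mean FPKM was at least 2-fold higher in 7 of the 9, against 11.1% of the genes tested, and folds ran from 1.44 for Ciita to 7.05 for H2-DMb1. The 9 genes summed to 60.1 and 63.8 FPKM in WT and to 166.1 and 176.0 FPKM in Tbx21-KO, or 0.0195% and 0.0205% against 0.0532% and 0.0539% of the FPKM in the table.

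**Figure D1:**
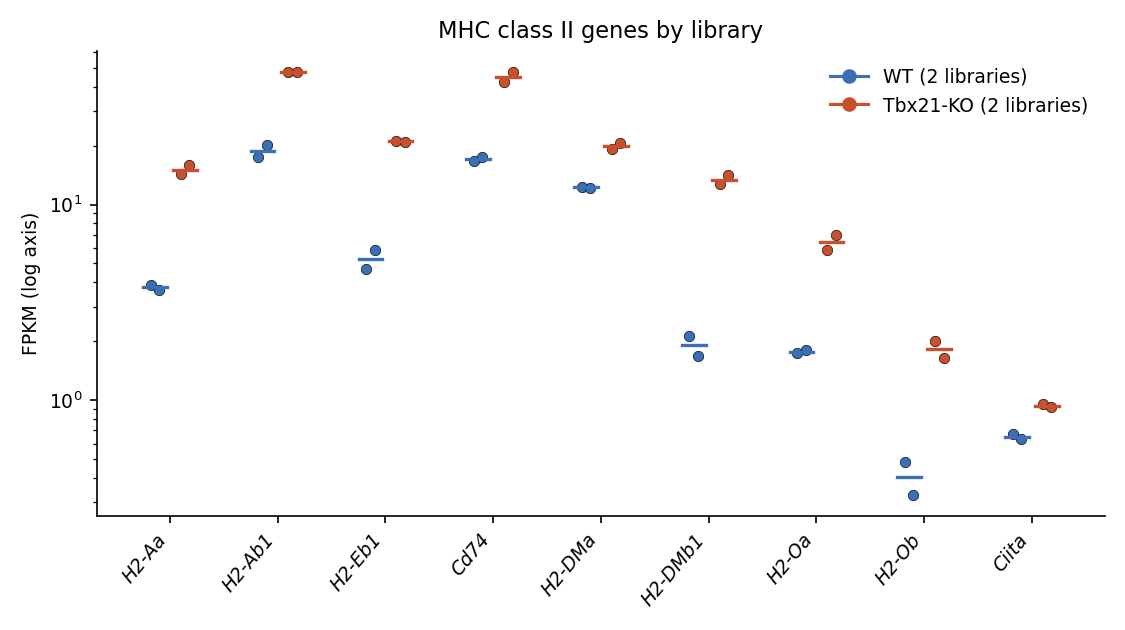
FPKM (log axis) of the 9 class II genes in each library, with 2 WT points and 2 Tbx21-KO points per gene and a line at each group's mean. The Tbx21-KO points lie above the WT points in every gene, with the widest gap in H2-DMb1 (1.90 against 13.4 FPKM) and the narrowest in Ciita (0.651 against 0.936 FPKM).

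H2-Aa (ENSMUSG00000036594, GRCm38 chromosome 17, 34282744 to 34287823) encodes the alpha chain of the I-A molecule. It was at 3.89 and 3.67 FPKM in the WT libraries and at 14.4 and 15.8 FPKM in the Tbx21-KO libraries. Both Tbx21-KO libraries were thus far above both WT libraries, and the groups did not overlap. The WT mean of 3.78 ± 0.155 and the Tbx21-KO mean of 15.1 ± 1.04 FPKM (SD, n = 2 each) differed 3.99-fold, a log2 difference of 1.75 (SE 0.07, limma adjusted p = 8.37e-05). H2-Ab1 (ENSMUSG00000073421, chromosome 17, 34257689 to 34269419) encodes the beta chain that pairs with it. It was at 17.5 and 20.2 FPKM in WT and at 47.6 FPKM in both Tbx21-KO libraries, without overlap. Its mean rose 2.53-fold, a log2 difference of 1.30 (SE 0.07, limma adjusted p = 0.000249). H2-Eb1 (ENSMUSG00000060586, chromosome 17, 34305867 to 34316674), the beta chain gene of the I-E molecule, was at 4.67 and 5.88 FPKM in WT, against 21.2 and 20.9 FPKM in Tbx21-KO. This was again a rise without overlap, 3.99-fold, with a log2 difference of 1.82 (SE 0.10, limma adjusted p = 0.000242). The pseudogene entry of the I-E alpha chain, H2-Ea-ps, was listed at 0 in all 4 libraries. The beta chain gene H2-Eb2 was at 0.181 and 0.113 FPKM in WT, against 0.272 and 0.113 FPKM in Tbx21-KO, too low to be tested, and its groups overlapped.

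The promoters are shown because the members moved together and class II promoters are known for a shared layout of X and Y boxes. RefSeq promoter windows of 300 bases (GRCm38.p6, 250 bases before to 50 after a start) were taken for 6 of the 9 members. No window of H2-Ab1, Cd74 or Ciita was searched. The search was for GNAAC, a core of the X box, followed on the same strand after 15 to 35 bases by GATTGG, the core of the Y box, on both strands. These letters were chosen with class II promoters in view, so their presence is a description and not a test. Of the 6 members 5 held the pair, each on the strand of the gene, and neither of the H2-DMa windows held it. The pair was present in 1.21% of all 32851 windows, GNAAC on either strand in 84.8% and GATTGG in 16.1%. For H2-DMb1 and H2-Oa the stretch with the pair touches a UTR of the GENCODE annotation, which starts these genes further upstream, and it is not printed. The other 3 run 5′ to 3′ on the gene's strand and lie before the RefSeq start, with both cores in capitals.
H2-Aa: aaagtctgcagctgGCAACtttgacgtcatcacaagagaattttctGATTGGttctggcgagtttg
H2-Eb1: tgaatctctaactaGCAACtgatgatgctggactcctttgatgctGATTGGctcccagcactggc
H2-Ob: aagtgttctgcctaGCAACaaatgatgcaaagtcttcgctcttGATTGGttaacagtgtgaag

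In order, these lie on chromosome 17 at 34287853 to 34287918 (minus strand) for H2-Aa and, on the plus strand, at 34305762 to 34305826 for H2-Eb1 and 34238804 to 34238866 for H2-Ob. The gap between the cores was 27 bases in H2-Aa, H2-DMb1 and H2-Oa, 26 in H2-Eb1 and 24 in H2-Ob. The Y core ended 38 bases before the start in H2-Oa and 56 in H2-DMb1, with the other members between. Whether the pair goes with the size of the difference was not tested. H2-Eb2 holds it with the 26-base gap of H2-Eb1, and its FPKM groups overlapped, at 9 to 21 estimated reads per library. No window of H2-DMb2 or H2-DMa holds it, and their means were 3.08-fold and 1.63-fold higher in Tbx21-KO. Those windows start inside the genes as GENCODE annotates them, so bases before the GENCODE starts were not searched.

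Cd74 (ENSMUSG00000024610, chromosome 18, 60803848 to 60812652), the invariant chain gene, was at 16.6 and 17.5 FPKM in WT, against 42.2 and 47.4 FPKM in Tbx21-KO. Both Tbx21-KO libraries were well above WT. The WT mean of 17.1 ± 0.615 and the Tbx21-KO mean of 44.8 ± 3.67 FPKM (SD, n = 2 each) differed 2.63-fold, a log2 difference of 1.34 (SE 0.07, limma adjusted p = 0.000189). Cd74 and H2-Ab1 stayed near the same level in both groups: the ratio of Cd74 to H2-Ab1 was 94.9% and 86.7% in WT and 88.7% and 99.5% in Tbx21-KO, and its groups overlapped.

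The peptide loading factor H2-DM is a pair of an alpha chain, from H2-DMa, and a beta chain, from H2-DMb1 or its near-identical copy H2-DMb2. H2-DMb1 (ENSMUSG00000079547, chromosome 17, 34153072 to 34160230) had 2.13 and 1.67 FPKM in WT, against 12.7 and 14.1 FPKM in Tbx21-KO, which corresponds to 89 and 68 reads against 499 and 571. This was the steepest rise among the members, 7.05-fold, with a log2 difference of 2.32 (SE 0.10, limma adjusted p = 0.000117). H2-DMa (ENSMUSG00000037649, chromosome 17, 34119541 to 34139101) had 12.4 and 12.1 FPKM in WT, against 19.2 and 20.6 FPKM in Tbx21-KO. It rose 1.63-fold, the smallest rise of the 8 tested members, with a log2 difference of 0.66 (SE 0.05, limma adjusted p = 0.000621). The partners were therefore far apart in WT, where H2-DMb1 stood at 17.3% and 13.8% of H2-DMa, and closer in Tbx21-KO, at 66.1% and 68.7%. The smallest two-sided p that an exact permutation test of such a ratio could return here is 0.33, so the ratios are given without a test.

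H2-DMb2 rose as well, from 1.26 and 0.994 to 3.46 and 3.50 FPKM, a log2 difference of 1.08 (SE 0.10, limma adjusted p = 0.00100). Reads of the near-identical copies can be split between them, so the single values of H2-DMb1 and H2-DMb2 are uncertain. The exons of H2-DMa share 360 bases, 10.4% of its exon length, with those of Brd2 on the opposite strand, and the sources used here do not say whether the authors counted by strand. Brd2, a bromodomain gene, was at 82.8 and 82.1 FPKM in WT, against 63.7 and 64.4 FPKM in Tbx21-KO, so its level moved the other way. The part of Brd2 reads in the value of H2-DMa was not tested.

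H2-Oa and H2-Ob encode the alpha and beta chains of H2-O, which holds H2-DM in check in B cells and some dendritic cells. H2-Oa (ENSMUSG00000024334, chromosome 17, 34092340 to 34095234) had 1.74 and 1.80 FPKM in WT, against 5.87 and 6.97 FPKM in Tbx21-KO, with 61 reads in each WT library and 193 and 236 in Tbx21-KO. It rose 3.63-fold, with a log2 difference of 1.42 (SE 0.09, limma adjusted p = 0.000388). Of its exon bases 22.8% overlap the antisense gene BC051537. H2-Ob (ENSMUSG00000041538, chromosome 17, 34238903 to 34254414) had 0.483 and 0.329 FPKM in WT, against 2.00 and 1.65 FPKM in Tbx21-KO. It rose 4.50-fold by the means, which the pseudocount shrinks to a log2 difference of 1.01 (SE 0.13, limma adjusted p = 0.00282). With a pseudocount of 5 that difference was 0.34, and by voom on estimated reads it was 2.16. The level of H2-Oa stood at 14.1% and 14.8% of H2-DMa in WT and at 30.5% and 33.9% in Tbx21-KO. Relative to H2-DMb1 alone, H2-Ob moved the other way, from 22.7% and 19.6% in WT to 15.7% and 11.7% in Tbx21-KO. The copy H2-DMb2 is left out of that ratio, and the split of reads between the copies is uncertain. Relative to its partner H2-Oa, H2-Ob stood at 27.8% and 18.3% in WT and at 34.0% and 23.7% in Tbx21-KO, with overlap.

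Ciita (ENSMUSG00000022504, chromosome 16, 10480059 to 10528418) encodes the transactivator on which class II transcription depends in antigen-presenting cells. It was at 0.671 and 0.631 FPKM in WT, against 0.954 and 0.919 FPKM in Tbx21-KO, or 160 and 145 reads against 212 and 211. The groups did not overlap, and the ratio of the means was 1.44. With no filter on low values, where 14.8% of 24768 genes were called higher, Ciita was not called: the log2 difference was 0.23 (SE 0.06, limma adjusted p = 0.108). The pseudocount of 1 exceeds each of its FPKM values and shrinks this difference, as in H2-Ob. The other 8 members were called in that fit too. FPKM sums over the whole gene, so the cell-type-specific promoters of Ciita cannot be told apart.

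Among 7 factors that hold CIITA at class II promoters, all tested, 2 were called higher, 1 lower and 4 were not called, beside 30.1% higher and 23% lower of all genes, so these shares do not set the list apart. Their median log2 difference was 0.13. Nfya, a subunit of the Y box factor NF-Y, was higher with a log2 difference of 0.50, and Nfyc, another subunit, fell by 0.51 on the log2 scale. Rfx5, the DNA-binding subunit of the X box factor RFX, named after its value was seen, was at 2.62 and 2.60 FPKM in WT, against 4.06 and 4.00 FPKM in Tbx21-KO, a log2 difference of 0.48 (SE 0.06, limma adjusted p = 0.00358). Of the genes that carry the interferon gamma signal to Ciita, 7 of 9 were measured, and 3 were higher, 3 lower and 1 was not called (median 0.07). The largest rise was in Ifngr2, a chain of the interferon gamma receptor, from 2.22 and 2.53 to 7.82 and 8.94 FPKM, a log2 difference of 1.47 (SE 0.09, limma adjusted p = 0.000312). The largest fall was in Ifng itself, from 68.2 and 51.4 to 22.5 and 23.5 FPKM, by 1.33 on the log2 scale. With the libraries rescaled to a T cell receptor gene list, 6 of the 7 enhanceosome genes were higher and none lower, and 5 of the 7 interferon genes were higher and 1 lower, where 73.4% of all genes were higher and 4.69% lower. Nfyc was not called there.

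By level per length, H2-Ab1 led in both groups, with means of 18.8 and 47.6 FPKM, followed by Cd74. In WT the order went on with H2-DMa, H2-Eb1, H2-Aa, H2-DMb1, H2-Oa, Ciita and H2-Ob. Of these neighbours only H2-DMb1 and H2-Oa had overlapping ranges. In Tbx21-KO H2-Eb1 stood above H2-DMa, at 21.2 and 20.9 FPKM against 19.2 and 20.6, and H2-Ob above Ciita, and no neighbouring ranges overlapped. With 2 libraries each, some of these gaps are narrow: H2-Eb1 exceeded H2-DMa in Tbx21-KO by 1.06 times. The I-A alpha chain gene stood below its beta chain gene in every library, with H2-Aa at 22.2% and 18.2% of H2-Ab1 in WT and at 30.2% and 33.2% in Tbx21-KO. Class II stayed far below class I: H2-Ab1 was at 1.62% and 1.87% of the class I chain gene H2-K1 in WT and at 3.68% and 3.58% in Tbx21-KO.

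Of the 9 members 7 lie in 224.3 kb of chromosome 17, from 34092340 to 34316674, together with 6 other protein-coding genes, of which 5 have a row. From H2-Oa onward the order is Brd2, H2-DMa, H2-DMb2, H2-DMb1, Psmb9, Psmb8, Tap2, H2-Ob, H2-Ab1, H2-Aa and H2-Eb1. The genes in the middle serve class I presentation: Psmb8 and Psmb9 encode immunoproteasome subunits and Tap2 a chain of the peptide transporter. Psmb8 was at 38.2 and 35.3 FPKM in WT, against 37.1 and 38.8 FPKM in Tbx21-KO, and it was not called (log2 difference 0.05). Tap2 was not called either (log2 difference 0.04), with 30.9 and 28.3 FPKM against 30.7 and 30.1. Psmb9 rose 1.46-fold, a log2 difference of 0.53, and Brd2 fell by 0.36 on the log2 scale. Apart from H2-DMb2, the 4 other genes of the interval with a row thus had log2 differences from -0.36 to 0.53, and the 7 members from 0.66 to 2.32. With the T cell receptor list scaling Psmb8 and Tap2 were called higher, at 0.51 and 0.50, and Brd2, at 0.11, was not called.

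**Figure D2:**
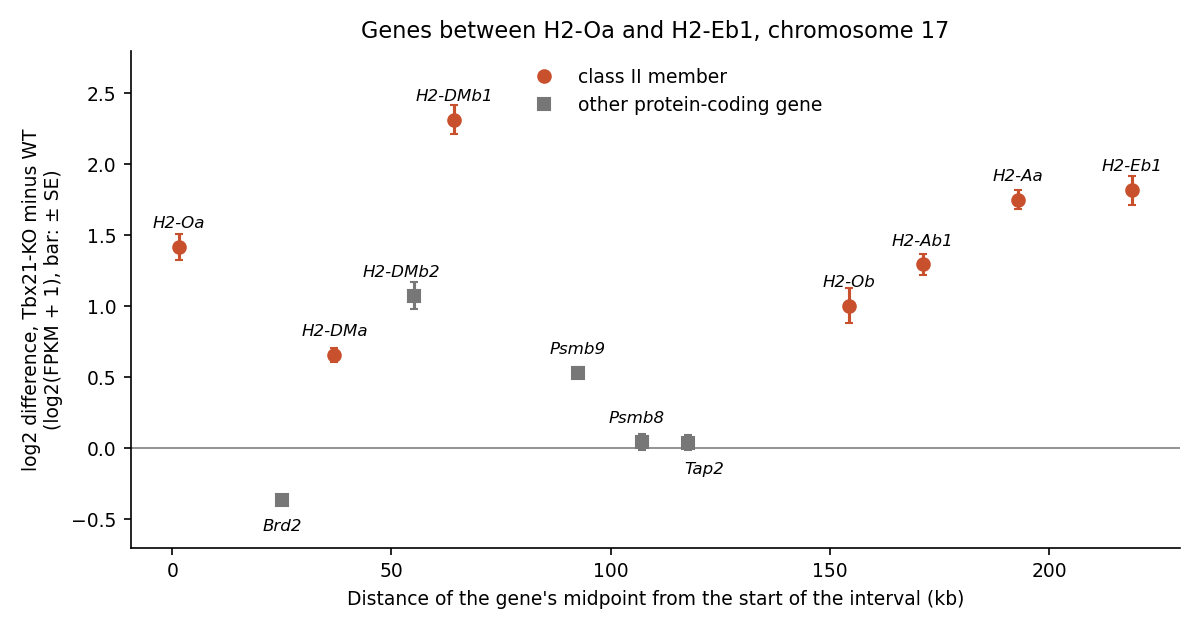
Log2 difference (in log2(FPKM + 1), Tbx21-KO minus WT, bars ± SE) of the 12 genes with a row between H2-Oa and H2-Eb1, against the distance of each gene's midpoint from the start of the interval in kb. The 7 class II members (circles) range from 0.66 to 2.32, while Psmb8 and Tap2 (squares), which lie between H2-DMb1 and H2-Ob, are at 0.05 and 0.04.

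Enzymes that prepare antigen in endosomes were higher alongside. Of 8 listed genes 7 have a row and were tested, and 6 were called higher and none lower, beside 30.1% of all genes called higher. Their median log2 difference was 1.18. The largest rise was in Lgmn, an asparagine-specific endopeptidase, from 1.33 and 1.18 to 6.25 and 6.20 FPKM, a log2 difference of 1.68 (SE 0.07, limma adjusted p = 0.000114). Ctss, which encodes cathepsin S, the protease known for the last cuts of the invariant chain, was named after its value was seen. It was at 34.7 and 36.5 FPKM in WT, against 78.2 and 83.6 FPKM in Tbx21-KO, a log2 difference of 1.16 (SE 0.05, limma adjusted p = 0.000118). The gene that was not called was Ifi30, a thiol reductase of endosomes, at 29.9 and 28.3 FPKM in WT, against 28.9 and 29.7 FPKM in Tbx21-KO. Of the 7, 2 had a WT mean under 1 FPKM and were kept by their Tbx21-KO values, and several of these proteases are also abundant in myeloid cells.

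In the class I pathway, 8 of 16 measured genes were higher, 3 lower and 5 were not called, beside 30.1% and 23% of all genes. Their median log2 difference was 0.12. The count of higher genes rests on both Tbx21-KO libraries: it was 5 without Tbx21-KO 1 and 4 without Tbx21-KO 2, with 2 lower each time, and 5 higher and 2 lower without a filter. The largest rise was in H2-T23, a nonclassical class I gene, from 87.9 and 88.4 to 156.3 and 155.6 FPKM, a log2 difference of 0.82. The largest fall was in Erap1, a peptide-trimming enzyme, by 0.48 on the log2 scale, a call that the T cell receptor list scaling ended. Median-of-ratios scaling gave 7 higher and 5 lower, and quantile normalization 6 and 4. With the T cell receptor list scaling 15 of the 16 were higher and none lower, beside 73.4% of all genes higher, at a median of 0.58, while the 8 class II members had a median of 1.78 there. Of 4 tested costimulatory ligand genes, Cd274, which encodes PD-L1, was higher with a log2 difference of 0.47, Icosl fell by 0.54, a call lost with the T cell receptor list scaling, and 2 were not called. Cd40 was at 0.341 and 0.475 FPKM in WT, against 0.818 and 0.941 FPKM in Tbx21-KO, under the filter. March8, a ubiquitin ligase that removes class II from the surface, was at 1.74 and 1.78 FPKM in WT, against 1.57 and 1.75 FPKM in Tbx21-KO and was not called, though quantile normalization called it lower. March1 was at 0.0280 and 0.116 FPKM in WT, against 0.408 and 0.297 FPKM in Tbx21-KO, under the filter. Of the receptors of class II on T cells, Lag3 fell from 66.5 and 67.2 to 28.7 and 29.8 FPKM, by 1.17 on the log2 scale. Cd4 was not called, with 1.74 and 1.84 FPKM in WT, against 2.01 and 2.02 FPKM in Tbx21-KO.

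**Figure D3:**
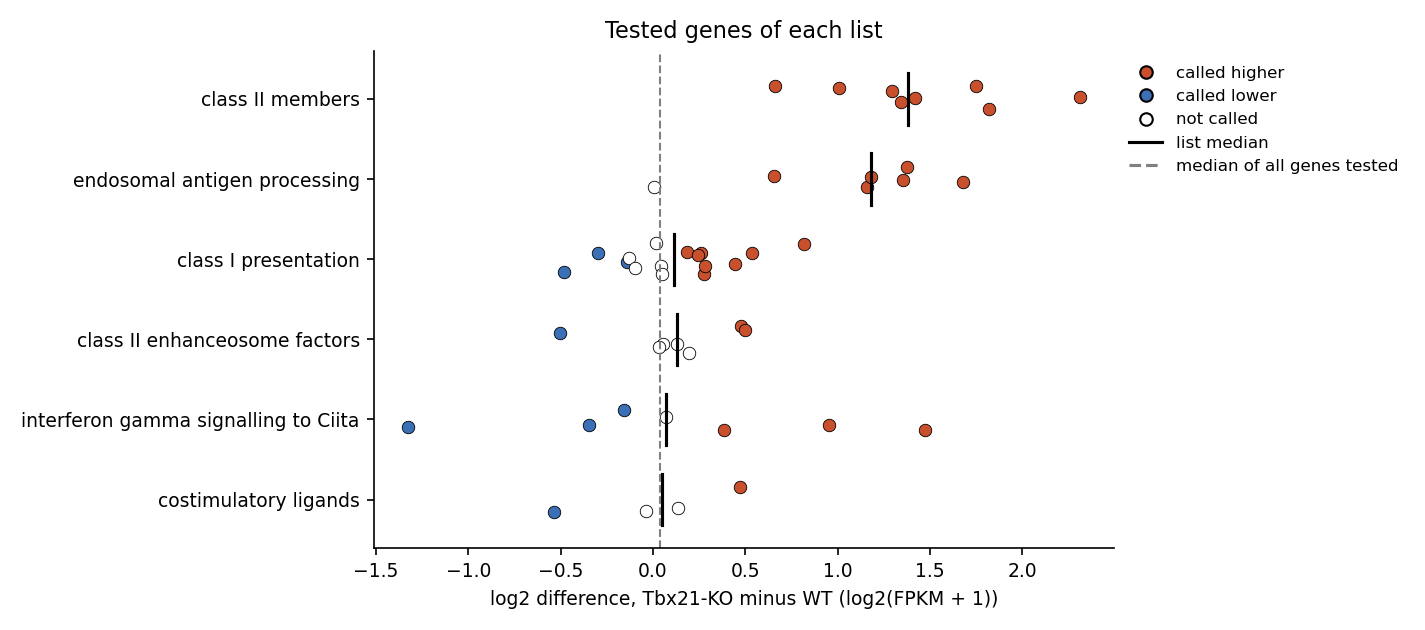
Log2 differences (in log2(FPKM + 1), Tbx21-KO minus WT) of the tested genes of 6 lists, coloured by call, with each list's median as a black line and the median of all genes tested, 0.04, as a dashed line. The class II members (median 1.38) and the endosomal processing genes (median 1.18) lie to the right, and the class I, enhanceosome, interferon gamma and costimulatory lists have medians from 0.05 to 0.13.

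Outside the set, the genes closest to H2-Aa were sought by the Euclidean distance in log2(FPKM + 1) over the 4 libraries, a measure of both level and change. Among the closest were St3gal1 and Idh1, with distances of 0.21 and 0.22. Idh1, which encodes an isocitrate dehydrogenase, was at 3.86 and 4.25 FPKM in WT, against 16.0 FPKM in both Tbx21-KO libraries. Among the members the closest were H2-Eb1 and H2-DMb1, with distances of 0.88 and 1.05. With 4 libraries in 2 groups this distance mostly reads the means of the groups.

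Markers of the professional class II carriers were read in the same libraries. Of 11 dendritic cell markers with a row, 6 were tested, and 2 were higher, 1 lower and 3 were not called. Of all genes tested 30.1% were higher and 23% lower, so these counts do not set the list apart. The list summed to 96.3 and 95.8 FPKM in WT and to 106.4 and 109.7 FPKM in Tbx21-KO. In 6 of the 11 both Tbx21-KO libraries lay above both WT libraries, beside 37.6% of the genes in the table, and in 3 below. Of its lineage markers, Flt3 reached at most 0.202 FPKM, Zbtb46 at most 0.297 and Clec9a at most 0.0379, while others were above 1 FPKM in WT. Xcr1 was at 1.32 and 1.54 FPKM in WT, against 1.01 and 0.962 FPKM in Tbx21-KO, and Itgax at 1.45 and 1.71 against 1.06 and 1.38 FPKM. Neither was called. Among the lowest, Clec9a was listed at 0 in both WT libraries and Cd209a at 0 in 3 of the 4. Clec10a, a marker of some dendritic cells and macrophages, went from 0 and 0.0715 FPKM in WT to 0.961 and 0.976 FPKM in Tbx21-KO and was called higher in the fit without a filter. The higher ones of the 6 were Ccr7 and Batf3, the latter from 6.22 and 6.82 to 26.1 and 25.0 FPKM, and the lower one was Irf8, which fell by 0.82 on the log2 scale. Quantile normalization gave 3 lower, with Itgax and Xcr1. Batf3 and Irf8 are also expressed by activated T cells.

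Of 10 B cell markers with a row, 6 were under 1 FPKM in all 4 libraries, among them Ms4a1 (at most 0.0415 FPKM) and Pax5 (at most 0.0517). In 9 of the 10 both Tbx21-KO libraries lay above both WT libraries, beside 37.6% of the genes in the table. Ms4a1 and Pax5 rest on 1 to 11 estimated reads per library. The 3 that were tested, Blk, Igkc and Ighm, were higher, with log2 differences of 2.90, 2.32 and 0.16, the last losing its call in 5 of 15 other fits. Beside these 3, 30.1% of all genes tested were called higher. Without a filter 5 of the 10 were higher, beside 14.8% of all genes. Cd79a, a chain of the B cell receptor complex, and Cr2 were added there. Cd79a was at 0.495 and 0.370 FPKM in WT, against 1.32 and 1.26 FPKM in Tbx21-KO, and Cr2 reached at most 0.138 FPKM. The list summed to 40.8 and 42.4 FPKM in WT and to 92.6 and 89.5 FPKM in Tbx21-KO.

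Of 9 macrophage and monocyte markers with a row, 7 were tested and called higher, beside 30.1% of all genes, but Adgre1 and Itgam passed the filter only by their Tbx21-KO levels. Under the filter on the WT mean 5 of 5 were higher, beside 25.5% of all genes. The list summed to 199.1 and 199.0 FPKM in WT, most of it Ly6c2 (163.9 and 161.9 FPKM), and to 485.5 and 517.1 FPKM in Tbx21-KO. Csf1r, the growth factor receptor of macrophages, was at 0.172 and 0.136 FPKM in WT, against 1.86 and 1.70 FPKM in Tbx21-KO, the macrophage marker Adgre1 was at 0.346 and 0.243 against 2.47 and 2.92 FPKM, and Mrc1 reached at most 0.124 FPKM. Lyz2 had the largest rise of the list, from 2.68 and 3.84 to 197.8 and 216.2 FPKM. All 12 granulocyte markers were called higher, beside 30.1% of all genes tested. Only 4 of the 12 had a WT mean of at least 1 FPKM, and the other 8 were tested because of their Tbx21-KO levels. The 12 summed to 6.87 and 9.53 FPKM in WT and to 10752.5 and 11052.3 FPKM in Tbx21-KO. Of 6 mast cell and basophil markers 5 were higher and 1, Kit, was lower. Under the filter on the WT mean, 4 of 4 granulocyte markers were higher, beside 25.5% of all genes. Under that filter 3 mast cell and basophil markers were left, of which 2 were higher and 1 lower. The 16 measured genes of the T cell receptor complex summed to 1509 and 1604 FPKM in WT and to 1008 and 1037 FPKM in Tbx21-KO. Of these genes 11 were called lower, 1, Cd5, was higher and 4 were not called. Of all genes tested 23% were lower and 30.1% higher. Without a filter 9 of the 16 were lower and 0 higher, beside 1986 lower and 3656 higher of 24768 genes. The part of these other cells in the class II values was not tested.

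**Figure D4:**
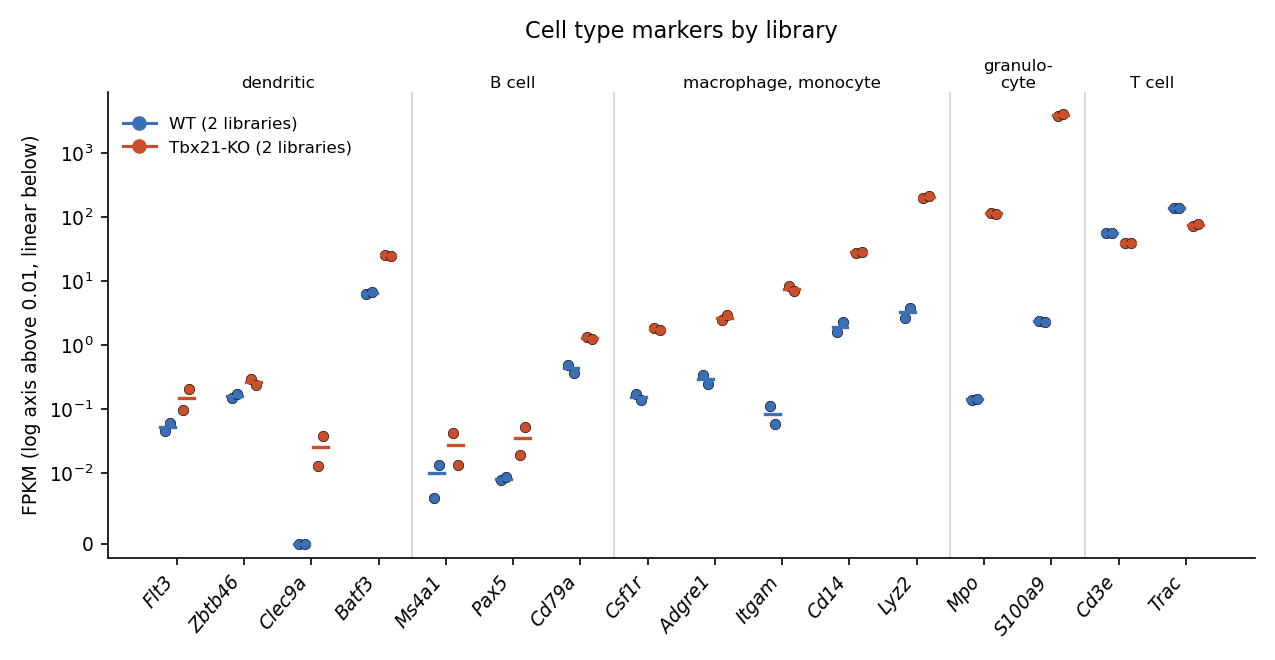
FPKM of markers of dendritic cells, B cells, macrophages and monocytes, granulocytes and T cells in each library (log axis above 0.01 FPKM, linear below), with 2 WT and 2 Tbx21-KO points and a line at each group's mean. Flt3, Zbtb46, Clec9a, Ms4a1 and Pax5 stay under 0.3 FPKM in all 4 libraries. Itgam, Cd14, Lyz2, Mpo and S100a9 are far higher in both Tbx21-KO libraries. The markers shown were picked from longer lists. Blk, Igkc and Ighm, the B cell markers that were tested and called higher, are among those left out. So are the dendritic cell markers Irf8, called lower, Ccr7, called higher, and Itgax and Xcr1, not called. Of the T cell receptor complex only Cd3e and Trac, both called lower, are shown. Cd5, called higher, and Cd3g, Zap70, Lat and Cd6, not called, are among those left out.

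The calls of the 8 members held in each of the 15 other fits in which a member was tested. The share of all genes called higher, against which these counts stand, was 29.9% with a pseudocount of 0.1 and 30.2% with 5, 28.7% when only genes averaging 5 FPKM or more were tested and 25.5% with the filter put on the WT mean. It was 27.4% with median-of-ratios scaling, 22.1% with quantile normalization, 29.8% without a variance trend, 29.5% with a replicate block and 33.6% by voom. It was 26.9% and 27.6% without WT 1 or 2, and 21.7% and 23% without Tbx21-KO 1 or 2. The T cell receptor list scaling, which moved the median of all genes by 0.40 on the log2 scale, raised each of the 8, and quantile normalization, which moved it by -0.14, lowered each, H2-Ob most, to 0.56. The order of the members was less firm than their direction, since the pseudocount acts most on the lowest genes: the log2 difference of H2-Ob ran from 0.34 to 2.16 over the other fits and that of H2-DMa from 0.53 to 1.10.

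**Figure D5:**
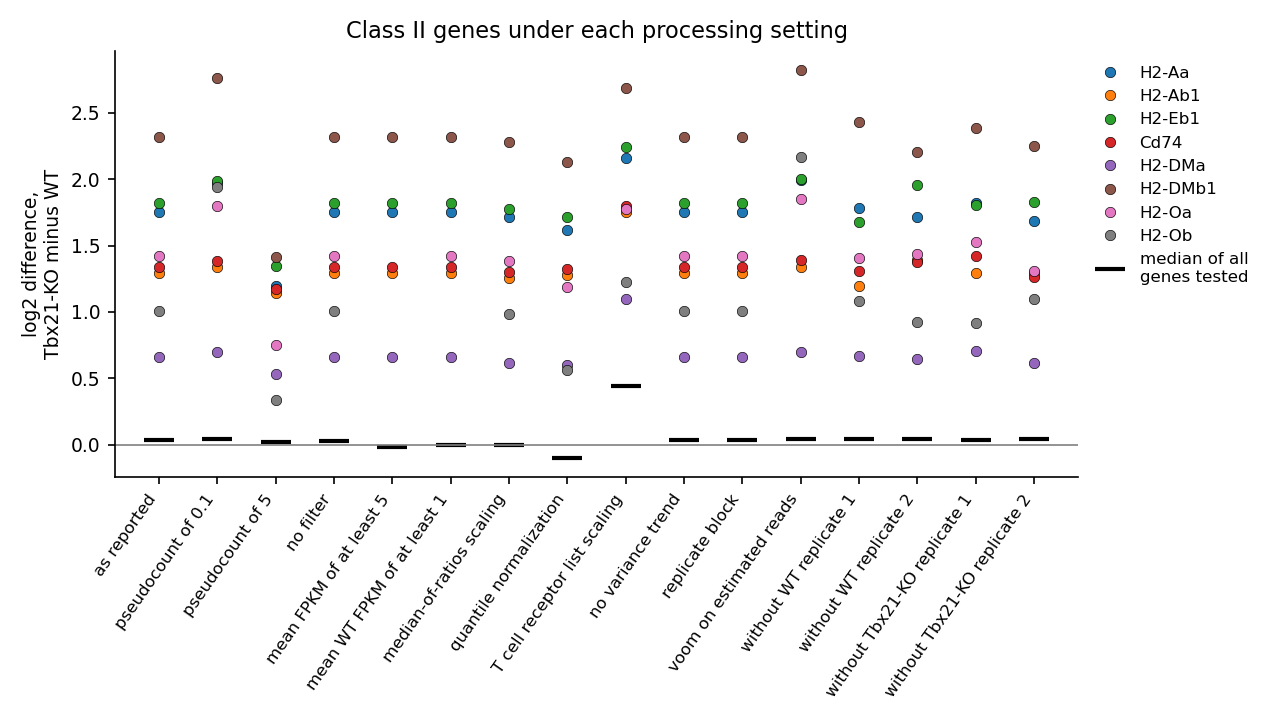
Log2 difference (Tbx21-KO minus WT) of the 8 tested class II genes as reported and under 15 other processing settings, with a black bar at the median of all genes tested in that setting. Every point lies above 0 and, in each setting, above the bar, and H2-Ob spreads most, from 0.34 with a pseudocount of 5 to 2.16 by voom.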

How the data were processed

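The deposited table holds 1 FPKM value per gene and library, which the authors computed; the column headers match the labels' descriptions. Genome builds GRCm38 and mm10 are named per the submitters' processing notes. No aligner, counting tool, annotation or strand setting is given in the sources used here. Libraries were made from total RNA with a SMARTER mRNA kit, per the labels' protocols. The last of 24769 rows is incomplete and was dropped. Ensembl IDs were matched to GENCODE M21 symbols (24720 of 24768). Read totals were estimated from FPKM and summed exon length, and 96.8% to 97.3% of values under 20 reads came out whole within 0.1 read.

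The groups were compared on log2(FPKM + 1), pseudocount 1, in genes with a mean of at least 1 FPKM, with limma 3.58.1 in R 4.3.3 (intensity trend) and Benjamini-Hochberg adjustment over all 11013 genes; the fit was tested on simulated data. The 9 members and the gene lists were chosen with earlier results of these data known. Every member is named. Of each list the largest rise and fall are named, and genes of the class II interval and the genes nearest to H2-Aa are named; some genes under these rules are not reported here. Ctss, Rfx5, H2-K1, Cd40 and single cell type markers were named after their values were seen. Alternatives were 2 pseudocounts, 3 filters, 3 scalings (median of ratios, quantiles, and the 16 measured genes of the T cell receptor complex), no variance trend, voom, a replicate block and leaving out each library.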

Additional observations from a re-analysis of the deposited data

How the results depend on the processing

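All 8 tested members stayed higher with an adjusted p under 0.05 in every alternative in which they were tested (7 of them under the filter on the WT mean, and 6 under the filter at 5 FPKM). Counts over all genes moved more. With a mean FPKM of at least 5, 2018 genes were higher, against 3315 as reported. Quantile normalization gave 3801 lower genes, against 2531, and with it 39.1% of the calls were higher, against 56.7%. The T cell receptor list scaling gave 8084 higher and 516 lower genes, 94.0% of the calls higher, and turned Brd2 from -0.36 to 0.11; this follows from the scaling's own construction. Leaving out 1 library gave 2391 to 3036 higher and 1726 to 2225 lower genes. The replicate numbers are shared between groups, but same-numbered libraries did not deviate together (correlation -0.02 over 11013 genes). With the replicate block 3245 genes were higher and 2482 lower, and the 8 members kept their calls. Low read counts limit some members: H2-Ob rests on 43 to 251 estimated reads per library and H2-Oa on 61 to 236. Ciita, with 145 to 212 estimated reads, failed the filter on FPKM, which also divides by its 9535 exon bases. Tested only without a filter, Ciita was not called.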
